A study of Homo sapiens with 12 samples.

Results

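The response of U937 cells to PML-RARA was measured 9 h after the gene was introduced, on 6 of the 12 Affymetrix arrays of the series. U937 is an established human monocytic line derived from a histiocytic lymphoma. The 6 arrays were chosen by their titles: those of the 9 h samples called GFP-PRWT (2 arrays) or GFP-PR2VR (2 arrays), and those of the 9 h samples called control GFP (2 arrays). The other 6 arrays are the same 3 constructs at 6 h, and they enter here as a shared estimate of the spread and as a comparison in time. They also count in the mean signals by which probe sets and genes were chosen, and in the offset added to the signals.

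All groups were U937 cells electroporated with a plasmid and sorted for green fluorescence. GFP cells received pEGFP, which makes green fluorescent protein alone. PRWT cells received pEGFP-PRWT, a tagged wild-type PML-RARA, and PR2VR cells received pEGFP-PR2VR. From the title of the series, PR2VR should be a fusion that resists proteases, but the sample labels call both forms wild type. Which promoter drives the plasmids was not stated in the labels, and the host cells keep their own PML and RARA genes. The model is thus a transient expression in a line that is not of promyelocytes. The titles count hours after infection for PRWT and PR2VR and hours after transfection for GFP, so any difference in procedure that this wording reflects cannot be told apart from the comparison. Replicate numbers 1 and 2 are in the titles, but nothing says that they were separate transfections, and each p-value therefore reflects sample-to-sample spread alone, possibly only technical.

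PML-RARA is the fusion protein of acute promyelocytic leukemia. It joins PML, which organizes nuclear bodies, to the retinoic acid receptor alpha, a transcription factor that pairs with RXR on DNA and switches genes on when retinoic acid binds. The fusion binds many of the same sites, recruits corepressors and holds myeloid cells at the promyelocyte stage. Proteases of the granules of such cells, neutrophil elastase among them, can cleave it.

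The values are MAS5 signals, a linear measure of probe set brightness, and differences are given on the scale of log2(signal + 62.5), which understates changes of dim genes. Of 19775 genes with a probe set, 13959 were bright enough to test. On all 6 arrays the trimmed mean signal was 1500.2. The 3 number 2 arrays of 9 h stood apart from the 3 number 1 arrays: their median signals were 387.6 to 435.8 against 245.9 to 291.1. Their GAPDH 3′ to 5′ signal ratios, a sign of RNA integrity, were 2.21 to 2.75 against 8.14 to 12.9. This is a ratio that is higher where the 5′ end of a transcript is under-represented. Every difference below was taken within a number and then averaged over both. Within number 1, PR2VR also differed from the other constructs: its median signal was 245.9 against 290.1 and 291.1, and its actin 3′ to 5′ ratio was 58.2 against 33.6 and 35.3. Of the monocyte markers, 7 of 9 had a usable probe set and 6 lay above the filter. Their summed signal was 12691 to 22529 in GFP cells and 7346 to 27463 in fusion cells, of which LYZ, the lysozyme gene, gave the most. SPI1, the master myeloid transcription factor, read only 27.4 to 536.1. The granule genes of promyelocytes summed to 24587 to 59478 in GFP and 19451 to 55562 in fusion cells, nearly all from CTSG. T cell, erythroid and epithelial or fibroblast markers summed to at most 3069 on any array. PAX5, a B cell transcription factor, was bright at 16215 and 6396 in GFP cells by its brightest probe set. Its other probe set read only 76.4 and 116.2 there, so PAX5 expression rests on 1 probe set.

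RARA and PML, the genes joined in the constructs, were examined first. The brightest RARA probe set read 63.4 and 309.2 in GFP cells, 32912 and 54610 in PRWT cells, and 29626 and 41097 in PR2VR cells. The groups were far apart, and both forms were at a similar level. RARA rose by 7.48 ± 0.40 (log2, SE, 4 fusion against 2 GFP arrays; adjusted p = 1.86e-05 in limma with all 12 arrays). GFP number 1 lay below the filter signal of 168.9 and near the offset, so the size of the RARA difference depends on the offset: it was 7.90 at an offset of 16 and 6.53 at 250. PR2VR differed from PRWT by -0.28 ± 0.46 (adjusted p = 0.999). The other RARA probe sets differed less: one by 3.68 on average, one by 1.07, and the last pair by 0.03 and -0.27. The brightest PML probe set differed by 0.25 ± 0.25 (adjusted p = 0.951). Another PML probe set read 396.8 and 409.4 in GFP cells, 4208 and 5896 in PRWT cells, and 2054 and 9895 in PR2VR cells, a mean difference of 3.37. Which parts of either gene the probe sets cover was not analysed here.

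RARA was the 1 gene of 13959 that passed at an adjusted p under 0.05 (0.00716%) when the spread was estimated from all 12 arrays. At an unadjusted p under 0.05 there were 460 genes higher (3.3%) and 422 lower (3.02%) in fusion than in GFP cells, 6.32% in all, where 5% of the genes tested would be 698. The differences were in 1 direction in 4 of 4 comparisons within numbers (PRWT and PR2VR, numbers 1 and 2) for 2065 genes higher (14.8%) and 2435 lower (17.4%). The signals of the 4 fusion arrays did not overlap those of the 2 GFP arrays for 743 genes higher (5.32%) and 877 lower (6.28%). Over all 13959 genes tested, 6371 lay above 0 and 7570 below, with a median of -0.04. The counts above and below 0 given for gene lists are to be read beside these. The 9 h arrays scattered less than the 6 h arrays once numbers were paired, with median residual SDs of 0.259 and 0.406. Fitted with the 9 h arrays alone, also paired by number, 60 genes passed (0.43%), 32 higher (0.229%) and 28 lower (0.201%), RARA among the former. "Rose" and "fell" below refer to that fit of 6 arrays, and none of these 59 other genes passed in the fit of 12, where their adjusted p ran from 0.0923 to 0.903. The count also rests on each GFP array: without GFP number 1 or GFP number 2 only 1 gene passed. Leaving out PR2VR number 1 left 4 genes and PR2VR number 2 left 1, while 808 genes passed without PRWT number 1 and 728 without PRWT number 2. It rests on the variance model too, since 1 gene passed without a trend of variance on signal. In each of these fits all 60 genes had the same direction, as choosing them by a paired fit of these arrays largely fixes. In cells sorted as a mixture, fewer cells that express a gene and less RNA per cell cannot be told apart.

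**Figure D1:**
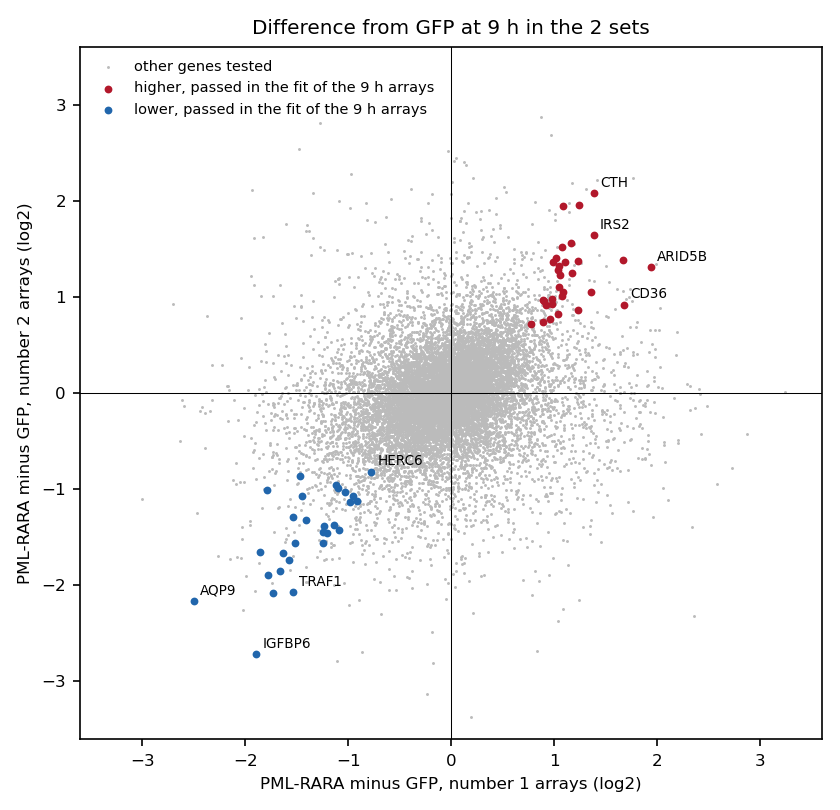
Each point is a gene; the axes give the log2 difference of the mean of PRWT and PR2VR from GFP on the number 1 arrays (x) and the number 2 arrays (y) of 9 h. Red and blue points are the 31 higher and 28 lower genes other than RARA that passed in the fit of the 9 h arrays, which lie in the upper right and lower left quadrants, as choosing them by a paired fit of these arrays largely fixes. Grey points are the other genes tested. RARA lies outside the axes and is not drawn.

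The 31 genes that rose other than RARA were led by metabolic, signalling and transcription genes: CTH, ARID5B, JAG1, KLF6, PTX3 and IRS2. The 28 that fell were led by AQP9, IGFBP6, IDO1, BIN1, TRAF1, RAB20 and CCL8. The sizes ran from 0.74 to 2.33 on the log2 scale. All 59 had 1 direction in 4 of 4 comparisons within numbers, and in 47 of them the fusion arrays did not overlap the GFP arrays. Since the 59 were picked by a paired fit of these same arrays, both counts largely follow from the choice and are no support for it.

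IRS2, the adaptor that links the insulin receptor to PI3 kinase, read 9554 and 4342 in GFP cells, 20608 and 12540 in PRWT cells, and 30408 and 14980 in PR2VR cells (numbers 1 and 2, as throughout). Every fusion array lay above both GFP arrays. The difference was 1.51 ± 0.23, a 2.86-fold rise (adjusted p = 0.129 with 12 arrays and 0.0107 with the 6 of 9 h). PIK3CG, a catalytic subunit of PI3 kinase in blood cells, rose by 0.93 ± 0.24. SGK1, a kinase downstream of PI3 kinase, rose by 1.07 ± 0.26. SLC2A3, a high-affinity glucose transporter, read 2311 and 2078 in GFP, 5654 and 6359 in PRWT and 4322 and 5837 in PR2VR cells, a rise of 1.30 ± 0.27. SLC2A3 alone passed of 25 genes of glucose uptake, glycolysis and hypoxia. Of these, 10 lay above 0 and 15 below, with a median of -0.06, near the -0.04 of all genes tested. TXNIP, which restrains glucose uptake, rose by 0.87 ± 0.21.

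CTH, the last enzyme of cysteine synthesis from methionine, had the highest rise after RARA. It read 1352 and 2289 in GFP, 2796 and 9256 in PRWT and 4706 and 10540 in PR2VR cells. The number 2 fusion arrays were the brightest, and none overlapped GFP (1.73 ± 0.39; adjusted p = 0.331 with 12 arrays and 0.0214 with 6). TRIB3, a pseudokinase induced in amino acid starvation, rose by 1.04 ± 0.29. Both are in a list of 22 genes of ATF4, the transcription factor of the amino acid response. Of these 22, 16 lay above 0 and 6 below, with a median of 0.35 against -0.04 over all genes tested, and the medians were 0.32 and 0.38 in numbers 1 and 2. None of the other 20 passed. ATF4 itself read 30068 and 26222 in GFP cells and 42349 to 49805 on the 4 fusion arrays, a difference of 0.71 ± 0.19 (adjusted p = 0.409 with 12 arrays). SLC7A11, the cystine transporter, differed by 1.08 ± 0.41, and PSAT1, of serine synthesis, by 0.78. ATF5, a related transcription factor, differed the other way by -1.26 ± 0.31, and DDIT3 by -0.05.

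Among transcription factors and their partners, KLF6, a zinc finger factor, read 7275 and 4080 in GFP, 24715 and 10358 in PRWT and 21829 and 11233 in PR2VR cells. All 4 fusion arrays were above both GFP arrays, and KLF6 rose by 1.53 ± 0.26 (adjusted p = 0.156 with 12 arrays and 0.0107 with 6). ARID5B, a DNA-binding partner of a histone demethylase, read 1807 and 1813 in GFP, 6533 and 4720 in PRWT and 7709 and 4445 in PR2VR cells, a rise of 1.62 ± 0.30. SOX4, a factor of immature cells, read 3629 and 1413 in GFP, 6246 and 4161 in PRWT and 10712 and 4415 in PR2VR cells, and rose by 1.36 ± 0.26. TCF7L2, the nuclear end of Wnt signalling, rose by 1.30 ± 0.21, RUNX2, a runt-domain factor, by 1.17 ± 0.30, and TSHZ1, a zinc finger factor, by 1.21 ± 0.25. CEBPB, a driver of monocyte and macrophage genes, read 35028 and 19184 in GFP, 17014 and 8450 in PRWT and 17174 and 10358 in PR2VR cells. It fell by 1.03 on the log2 scale, with both forms lower within each number. Of 18 myeloid transcription factors measured, 12 lay above 0 and 6 below (median 0.15); KLF6, SOX4 and CEBPB passed. MYB, a factor of myeloid progenitors, differed by 0.80 ± 0.24 without passing, CEBPA by -0.22 and IRF8 by -0.33.

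JAG1, a Notch ligand, read 3597 and 1582 in GFP, 8862 and 6307 in PRWT and 8261 and 6342 in PR2VR cells. It rose by 1.60 ± 0.25, with both forms at nearly the same level. It was the single gene to pass of 13 measured in a list of genes high in acute promyelocytic leukemia, of which 7 lay above 0 and 6 below (median 0.17). TRIB1, a pseudokinase that leads CEBPA to degradation, differed by 0.97 ± 0.25 and HGF, a growth factor, by -0.18. The choice of probe set matters for several of these genes: with the mean of all probe sets of a gene, the difference was 0.50 for JAG1, 0.42 for ARID5B, 0.62 for SOX4 and 0.76 for TCF7L2, in the same direction. Of the 60 genes, 39 had another probe set above the filter. Of these 81 probe sets, 69 had the same direction. The 11 genes with 1 or more in the opposite direction were RARA, KLF6, TCF7L2, RUNX2, TRIB3, HERC6, APOL2, CELF2, HNRNPA0, ST3GAL6 and TMEM65.

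**Figure D2:**
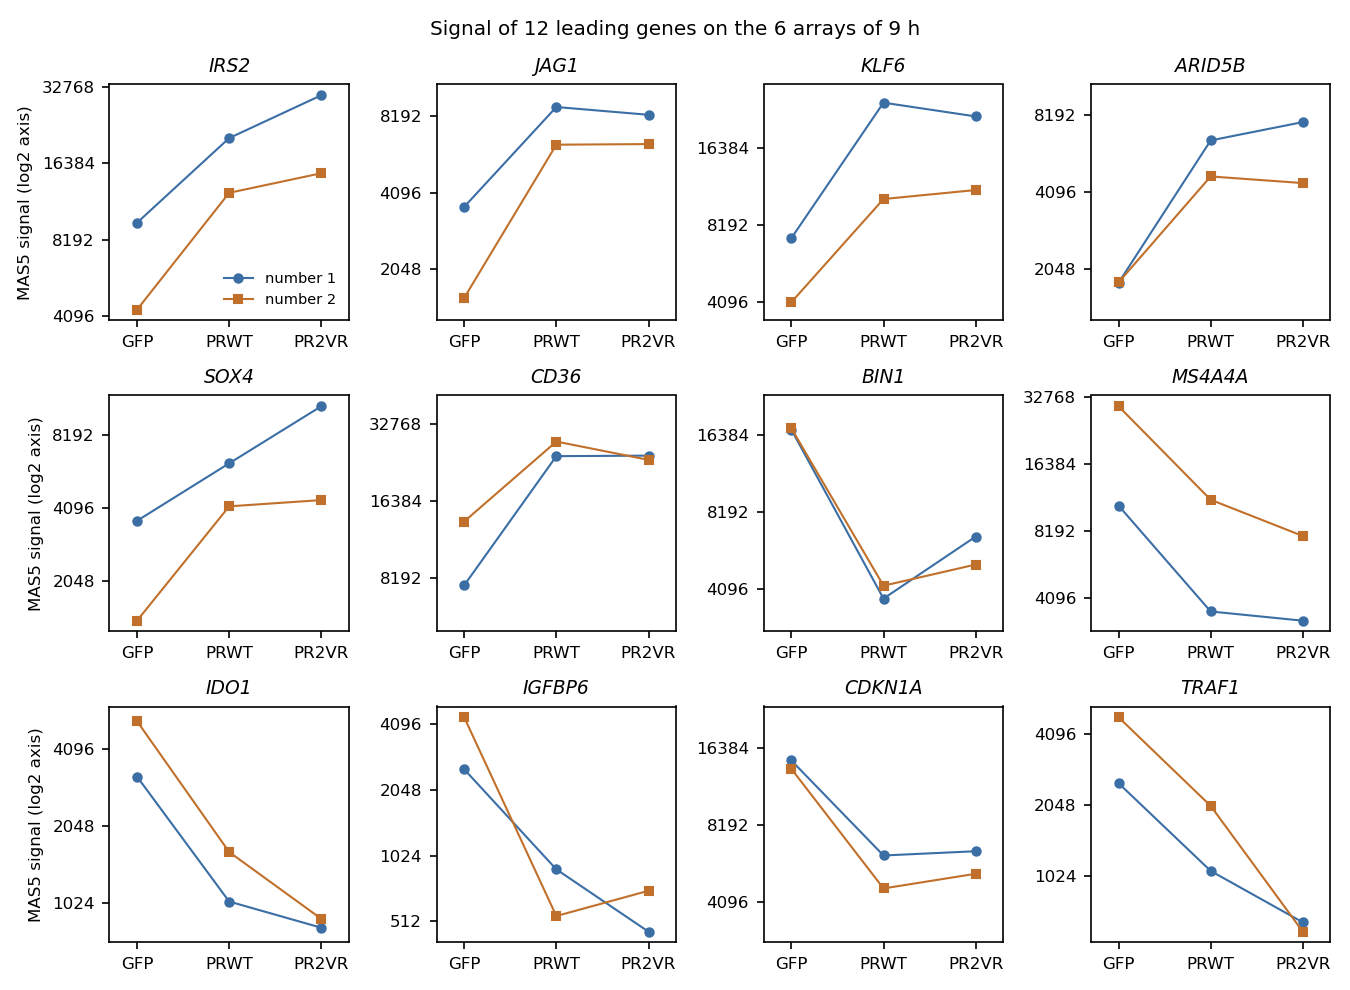
MAS5 signal (y, log2 axis, a separate range in each panel) of 12 genes on the 6 arrays of 9 h, by construct (x); circles and blue lines join the number 1 arrays, squares and orange lines the number 2 arrays. IRS2, JAG1, KLF6, ARID5B, SOX4 and CD36 are higher in PRWT and PR2VR than in GFP of the same number, and BIN1, MS4A4A, IDO1, IGFBP6, CDKN1A and TRAF1 are lower.

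BIN1, a membrane-bending protein that also binds MYC, read 17247 and 17450 in GFP, 3752 and 4215 in PRWT and 6567 and 5103 in PR2VR cells. The GFP arrays were nearly equal, and every fusion array was far below them. The difference was -1.84 ± 0.25, a 3.58-fold fall (adjusted p = 0.0923 with 12 arrays, the lowest after RARA of the 60 genes, and 0.0107 with 6). IGFBP6, which binds IGF2, read 2552 and 4424 in GFP, 885.3 and 540.4 in PRWT and 457.9 and 706 in PR2VR cells (-2.31 ± 0.38; adjusted p = 0.129 and 0.0333). RAB20, a small GTPase of phagosomes, read 11099 and 12412 in GFP cells and between 3369 and 3528 on the 4 fusion arrays (-1.76 ± 0.32). CDKN1A, the p21 inhibitor of the cell cycle, read 14678 and 13617 in GFP, 6226 and 4624 in PRWT and 6470 and 5279 in PR2VR cells (-1.33 ± 0.22; adjusted p = 0.129 and 0.0186). CDKN1A alone passed of 17 p53 targets and CDK inhibitors measured. Of these, 6 lay above 0 and 11 below, with a median of -0.07, near the -0.04 of all genes tested.

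Genes of the monocyte and macrophage did not move as one. MS4A4A, a macrophage membrane protein, read 10641 and 29777 in GFP, 3553 and 11303 in PRWT and 3230 and 7764 in PR2VR cells. The number 2 array of each construct was the brighter, so the groups overlap, but within each number both forms were lower than GFP (-1.65 ± 0.24; adjusted p = 0.129 and 0.0107). AQP9, a water and glycerol channel, read 1035 and 2045 in GFP, 382.5 and 701.1 in PRWT and 22.2 and 227.7 in PR2VR cells, of which 22.2 is below the signal of 168.9 used as a filter (-2.33 ± 0.48; adjusted p = 0.297 and 0.0423). FGR, a Src-family kinase of myeloid cells, fell by 1.66 on the log2 scale. CD36, a scavenger receptor for oxidized lipid, rose: it read 7661 and 13629 in GFP, 24589 and 28051 in PRWT and 24706 and 23776 in PR2VR cells (1.30 ± 0.25; adjusted p = 0.251 and 0.036). Of 20 monocyte markers measured, 5 lay above 0 and 15 below (median -0.27), and AQP9, MS4A4A and CD36 passed. ITGAM, the CD11b integrin chain, read 2371 and 2541 in GFP cells and 926.7 to 1309 on the fusion arrays, a difference of -1.14 ± 0.32 (adjusted p = 0.468 with 12 arrays). MS4A6A differed by -1.07 ± 0.25 and TLR2 by 0.44. Of 9 granule proteins 8 lay below 0 (median -0.25), with none passing; CTSG differed by -0.27 and ELANE, neutrophil elastase, by -0.23.

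Genes of NF-kB signalling and inflammatory cytokines lay mostly below 0. TRAF1, an adaptor of TNF receptors, read 2538 and 4848 in GFP, 1072 and 2030 in PRWT and 647 and 590.3 in PR2VR cells. It was lowest in PR2VR cells and fell by 1.80 on the log2 scale (adjusted p = 0.251 with 12 arrays and 0.0386 with 6). NFKBIA, the inhibitor that NF-kB itself induces, read 15980 and 11916 in GFP cells and 5397 to 9130 on the fusion arrays, a fall of 1.02 on the log2 scale. CCL4, a chemokine, read 14235 and 24921 in GFP, 9131 and 15219 in PRWT and 3949 and 5976 in PR2VR cells, and fell by 1.31 on the log2 scale. Of 26 genes of this list 4 lay above 0 and 22 below, with a median of -0.33 (-0.43 in number 1 and -0.31 in number 2); TRAF1, NFKBIA and CCL4 passed. TNFRSF9, a TNF receptor of the list, differed by -1.86 ± 0.39 without passing, and ICAM1, an adhesion molecule, by -0.81. PTGS2, the inducible cyclooxygenase, went the other way: it read 547.8 and 473.2 in GFP cells and 1099 to 2472 on the fusion arrays (1.52 ± 0.51; adjusted p = 0.628 with 12 arrays). IER3 differed by 0.55 and CXCL8, the neutrophil chemokine, by 0.47. CCL8, a monocyte chemokine outside the list, fell by 1.76 on the log2 scale, and TNIP1, an inhibitor of NF-kB, by 1.06. PTX3, a secreted pattern receptor, rose by 1.52 ± 0.42. CCR7, a chemokine receptor, read 1846 and 911.2 in GFP cells and 186.8 to 438.2 on the fusion arrays (-1.89 ± 0.32), just short of the threshold (adjusted p = 0.138 with 12 arrays and 0.0547 with 6).

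Interferon-related genes lay mostly below 0 as well, few of them past the threshold. ISG20, an exonuclease against viral RNA, read 26283 and 33146 in GFP, 8081 and 21576 in PRWT and 7079 and 12459 in PR2VR cells and fell by 1.40 on the log2 scale. HERC6, a ubiquitin ligase family member, fell by 0.80 on the log2 scale and its signals did not overlap (37692 and 44109 in GFP cells, 18816 to 28433 in fusion cells). Of 30 interferon response genes 4 lay above 0 and 26 below, with a median of -0.36 against -0.04 over all genes tested. In 4 of 4 comparisons 17 of the 30 were lower, against 17.4% of all genes tested. ISG20 and HERC6 passed. XAF1, a pro-apoptotic gene, differed by -1.29 ± 0.39 and IFI44L by -1.01 ± 0.31, and MX1, at a low signal, by 0.75 ± 0.42. Of 10 interferons and receptors 9 lay below 0 (median -0.65) and none passed; IFNAR2, a chain of the type I receptor, read 14697 and 9789 in GFP cells and 3411 to 8065 on the fusion arrays (-1.03 ± 0.24; adjusted p = 0.35 with 12 arrays). Other IFNAR2 probe sets differed by only -0.387 and -0.245 on average. In the latter PR2VR number 1 lay above GFP number 1. IFNA1 and IFNA2 in that list have near-identical copies that a probe set may not tell apart. APOL2, an apolipoprotein L, fell by 1.35 on the log2 scale, but by 0.45 as the mean of its probe sets. SOCS1, the feedback inhibitor of cytokine receptors, read 3989 and 3765 in GFP cells and 609.4 to 2214 on the fusion arrays, a difference of -1.52 ± 0.37 that did not pass.

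IDO1, which breaks down tryptophan, read 3195 and 5269 in GFP, 1034 and 1617 in PRWT and 816.4 and 884.5 in PR2VR cells. Every fusion array lay below both GFP arrays, and IDO1 fell by 1.91 on the log2 scale, a 3.75-fold fall (adjusted p = 0.129 with 12 arrays and 0.0186 with 6). Of 11 genes of tryptophan and amino acid oxidation 8 lay below 0 (median -0.71), and IDO1 alone passed. IL4I1, an oxidase that also uses tryptophan, differed by -1.44 ± 0.32, IDO2 by -1.16 ± 0.37 and KYNU by -0.71. AHR, the receptor for their products, differed by 0.87.

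Of 10 genes that retinoic acid induces 9 lay below 0 (median -0.53; -0.36 in number 1 and -0.75 in number 2). DHRS9, a dehydrogenase of retinol, read 40169 and 48793 in GFP, 13017 and 14914 in PRWT and 21806 and 18286 in PR2VR cells. Both forms were well below GFP, and DHRS9 fell by 1.41 on the log2 scale (adjusted p = 0.35 with 12 arrays and 0.0147 with 6). It was the single member to pass. CD38, a surface enzyme, differed by -0.97 ± 0.27 and PLAAT4, a phospholipase, by -0.84. CYP26A1, which degrades retinoic acid, and RARB, the beta receptor, were dim (at most 535.2) and differed by -0.36 and -0.24. Among 12 retinoid receptors and corepressors RARA was the only one past an unadjusted p of 0.05, the others lying between -0.58 (RARG) and 0.32 (SIN3A).

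Of 18 genes responsive to FOXO factors 15 lay above 0 (median 0.27), and IRS2, KLF6 and TXNIP passed; PIK3IP1, an inhibitor of PI3 kinase, differed by 1.40 ± 0.37. Of 17 genes of cholesterol and fatty acid synthesis 13 lay above 0 (median 0.15) with none passing. The medians of 24 DNA replication genes, 25 genes of G2 and mitosis, 26 ribosomal protein genes and 13 heat shock genes lay between -0.06 and 0.04. None of these genes passed. In the same order, 15, 9, 5 and 6 of them lay above 0 and 9, 16, 21 and 7 below. Of 18 apoptosis regulators 14 lay below 0 (median -0.20), with CFLAR, an inhibitor of caspase activation, at -1.18 ± 0.40. Of 20 genes of protein folding in the endoplasmic reticulum 15 lay below 0 (median -0.22). PAX5 fell by 1.04 on the log2 scale. It read 16215 and 6396 in GFP, 9583 and 4719 in PRWT and 5920 and 2167 in PR2VR cells. The other PAX5 probe set, dim and below the filter, differed the other way, by 0.40 on average. Of 8 B cell genes measured, 7 lay below 0 (median -0.27). The B cell markers MS4A1, CD79A and CD79B summed to 1480 and 3106 in GFP, 1908 and 3065 in PRWT and 959.8 and 2698 in PR2VR cells. Within numbers this sum without PAX5 was not lower on all fusion arrays, since PRWT number 1 lay above GFP number 1.

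**Figure D3:**
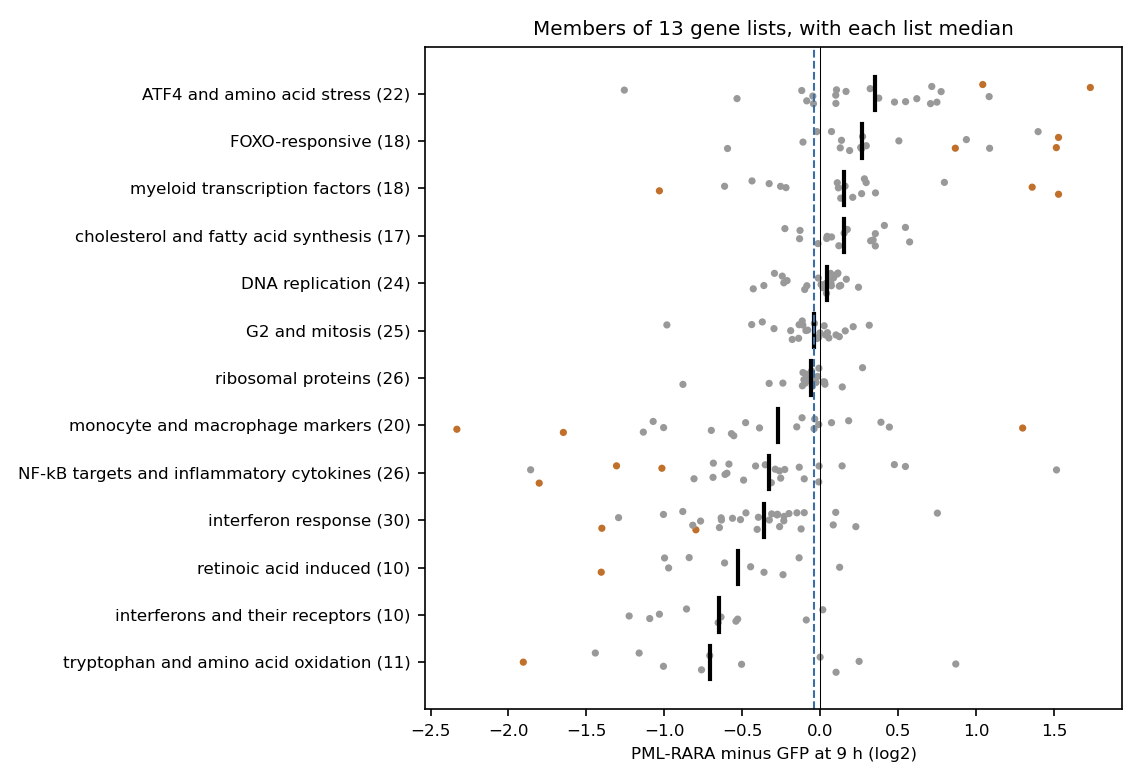
Log2 difference of fusion from GFP cells at 9 h (x) for the measured members of 13 gene lists (y, number of members in brackets). Each point is a gene, orange where it passed in the fit of the 9 h arrays; black bars are list medians and the dashed line is the median of all genes tested, -0.04. The medians run from 0.35 for the ATF4 list to -0.71 for tryptophan and amino acid oxidation. Each list has members on both sides of 0.

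The remaining genes that passed cover other functions. Among those that rose, CYTIP, which holds cytohesin in the cytoplasm, read 2645 and 2570 in GFP cells and 4619 to 7184 on the fusion arrays (1.23 ± 0.25). AMD1, of polyamine synthesis, rose by 0.92 ± 0.29, ST3GAL6, a sialyltransferase, by 1.14 ± 0.30, and CDC42EP3, an effector of CDC42, by 1.18 ± 0.28. The RNA-binding proteins MEX3C, CELF2 and HNRNPA0 rose by 1.21, 0.82 and 0.98. STK17B, a kinase linked to apoptosis, rose by 1.21 ± 0.35. STAMBPL1, EEIG2, RESF1, TMEM65, NABP1, RCBTB2 and ERLIN1 completed the list, from 0.74 for ERLIN1 to 1.16 for STAMBPL1.

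Among the other genes that fell, IL10RA, the interleukin-10 receptor chain, read 24327 and 22471 in GFP, 8496 and 8787 in PRWT and 14363 and 8449 in PR2VR cells, a fall of 1.25 on the log2 scale. GAS7, an actin-associated protein, read 28532 and 34747 in GFP, 11944 and 10596 in PRWT and 15006 and 15633 in PR2VR cells, a fall of 1.26. EXT1, which builds heparan sulfate, read 20541 and 21859 in GFP cells and 7111 to 11834 on the fusion arrays, a fall of 1.26. In these genes the GFP arrays lay close together and every fusion array was below them. BLVRA, biliverdin reductase, fell by 1.17, but another of its probe sets, nearly as bright, differed by -0.59 on average. BHLHE40, a transcriptional repressor, fell by 1.02, ZBTB32, a zinc finger repressor, by 1.41, and FXYD6, a regulator of the sodium pump, by 1.36. ANKRD33B fell by 1.04 and SPATA24 by 1.54. The fall of SPATA24 was mostly that of PRWT (-2.59, against -0.49 in PR2VR), and its groups overlap. Another SPATA24 probe set was dim, at 80.4 to 357.7, and differed by -0.24 on average.

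The promoters of the 2 highest rises after RARA and the 2 deepest falls are shown because PML-RARA, ATF4 and NF-kB are all DNA-bound regulators whose motifs could be looked for there. They are RefSeq windows from 250 bases before to 50 after the transcription start, on GRCh38.p14, all on the plus strand. CTH lies at chr1:70411018-70411317, ARID5B at chr10:61901449-61901748, AQP9 at chr15:58137919-58138218 and IGFBP6 at chr12:53097417-53097716. Capitals mark matches to the motifs named after the sequences.
CTH: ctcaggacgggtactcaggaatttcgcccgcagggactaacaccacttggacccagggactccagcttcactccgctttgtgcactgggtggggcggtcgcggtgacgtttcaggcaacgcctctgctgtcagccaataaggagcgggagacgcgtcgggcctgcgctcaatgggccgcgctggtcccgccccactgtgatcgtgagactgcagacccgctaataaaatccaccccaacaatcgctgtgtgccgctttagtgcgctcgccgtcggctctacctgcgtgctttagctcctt
ARID5B: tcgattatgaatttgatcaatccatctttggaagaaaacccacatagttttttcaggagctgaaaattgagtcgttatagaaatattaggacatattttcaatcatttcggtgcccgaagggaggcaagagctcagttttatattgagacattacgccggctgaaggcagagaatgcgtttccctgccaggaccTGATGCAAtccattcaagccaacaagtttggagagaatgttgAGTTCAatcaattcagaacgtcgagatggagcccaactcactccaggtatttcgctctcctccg
AQP9: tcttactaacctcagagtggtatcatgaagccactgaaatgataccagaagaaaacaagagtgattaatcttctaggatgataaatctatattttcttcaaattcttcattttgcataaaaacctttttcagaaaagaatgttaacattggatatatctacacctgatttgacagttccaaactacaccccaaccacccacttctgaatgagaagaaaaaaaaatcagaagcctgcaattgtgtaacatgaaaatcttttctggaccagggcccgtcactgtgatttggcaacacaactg
IGFBP6: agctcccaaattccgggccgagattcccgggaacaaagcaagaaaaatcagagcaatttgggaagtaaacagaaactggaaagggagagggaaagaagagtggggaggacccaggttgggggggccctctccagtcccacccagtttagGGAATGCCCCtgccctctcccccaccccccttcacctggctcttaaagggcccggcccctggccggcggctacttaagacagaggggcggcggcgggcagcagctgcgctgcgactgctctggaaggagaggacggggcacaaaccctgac

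Motifs were searched on both strands. They were the nuclear receptor half-sites, which are AGGTCA or AGTTCA or either with G as its first base, the interferon-responsive motif of a pair of GAAA with 2 bases between, the NF-kB motif of GGG and TCC with 4 bases between, and TGATGNAA of amino acid response elements. The ARID5B window holds TGATGCAA at -56 and the half-site AGTTCA at -14 from the start, and the IGFBP6 window holds GGAATGCCCC, a match to the NF-kB motif on the other strand, at -101. The CTH and AQP9 windows hold no match. A half-site was in 10 of 27 promoters of the genes that rose and in 5 of 22 of those that fell, against 32.9% of the genes tested and 38.7% of all 27305 promoters. The NF-kB motif was in 5 of 27 and in 10 of 22, against 25.9% and 22.2%. It was in 15 of 24 promoters of the NF-kB list, the interferon-responsive motif was in 15 of 24 of the interferon response list (2.9% of the genes tested) and TGATGNAA in 5 of 19 of the ATF4 list (2.21%). These counts describe letters in a short window and no binding.

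The forms were then set against each other, since the series asks about a protease-resistant fusion. Against GFP, with 12 arrays, RARA was the 1 gene to pass for PRWT (0.00716%) and for PR2VR (0.00716%). With the 9 h arrays alone, 12 genes passed for PRWT (0.086%), 5 higher (0.0358%) and 7 lower (0.0501%), and 23 for PR2VR (0.165%), 9 higher (0.0645%) and 14 lower (0.1%). Both use the same GFP arrays, so their lists are not independent. The difference between the forms itself passed for 0 of 13959 genes in either fit. With 12 arrays its smallest adjusted p was 0.999, and 367 genes had an unadjusted p under 0.05 (2.63%, where 5% of genes would be 698).

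Of the 59 genes, 41 had the larger difference from GFP in PR2VR (69.5%) and 18 in PRWT; over all genes tested, PR2VR had the larger in 52.7%. PR2VR number 1 also stood apart from the other number 1 arrays, as given above, and the part of this in the count was not tested. For BIN1 the differences were -2.11 in PRWT and -1.57 in PR2VR, for KLF6 1.54 and 1.51, for JAG1 1.62 and 1.57, and for RAB20 -1.75 and -1.76. An unadjusted p under 0.05 between the forms was reached by 6 of the 59, none of which passed after adjustment. The PR2VR minus PRWT difference of AQP9 was -1.90 ± 0.56 (-1.38 against GFP in PRWT and -3.28 in PR2VR). It was -1.18 for TRAF1, -1.27 for CCL4, -0.91 for APOL2 and -0.90 for PAX5. SPATA24 went the other way: it read 53296 and 18816 in GFP, 7020 and 3868 in PRWT and 49138 and 10321 in PR2VR cells, a difference of 2.10 ± 0.55. Over all genes, the smallest unadjusted p with PR2VR above PRWT included WAS, the actin regulator of blood cells, at 17668 and 27558 in GFP, 3934 and 9092 in PRWT and 22786 and 19298 in PR2VR cells (1.80 ± 0.41). With PR2VR below PRWT they included FOLR1, a folate receptor (-2.69 ± 0.62). It read 9523 and 3352 in GFP, 16423 and 27208 in PRWT and 4292 and 2431 in PR2VR cells. Neither WAS nor FOLR1 passed, and each had another, dim probe set. That of FOLR1 read 122.1 and 30.9 in PRWT and 302.7 and 42.9 in PR2VR cells, the reverse direction in both numbers. That of WAS read 170.4 and 415.3 in PRWT and 284.2 and 286.7 in PR2VR cells. There PR2VR was higher in number 1 and lower in number 2.

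The same comparison at 6 h uses other arrays and asks whether the response was already there. Of the 59 genes, 57 had the same direction at 6 h (96.6%, against 56.2% of all genes tested), and 48 had it in both numbers of 6 h (all genes, 30.0%). The exceptions were MEX3C (1.21 at 9 h and -0.003 at 6 h) and NABP1 (0.93 and -0.24). The median of the 31 that rose was 1.17 at 9 h and 0.61 at 6 h, and that of the 28 that fell was -1.36 and -0.98. Since the genes were picked at 9 h, the smaller 6 h values are a description. ARID5B (1.62 and 2.04), KLF6 (1.53 and 1.59), SOX4 (1.36 and 1.64) and CEBPB (-1.03 and -1.11) were at about the same distance from GFP at both times. JAG1 differed by 0.40 at 6 h, a change between times of 1.19 (unadjusted p = 0.00578 in limma). CTH (0.50 at 6 h), MEX3C, STAMBPL1, BHLHE40, PAX5 and TRAF1 also had an unadjusted p under 0.05 for the change between times. No gene of the 13959 passed that test (0%; smallest adjusted p = 1.0 in limma), and 434 had an unadjusted p under 0.05 (3.11%). Among those with the smallest unadjusted p were KCNJ15, a potassium channel, at 0.99 at 9 h and -0.62 at 6 h, and GRPR, a peptide receptor, at -0.76 and 1.79.

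**Figure D4:**
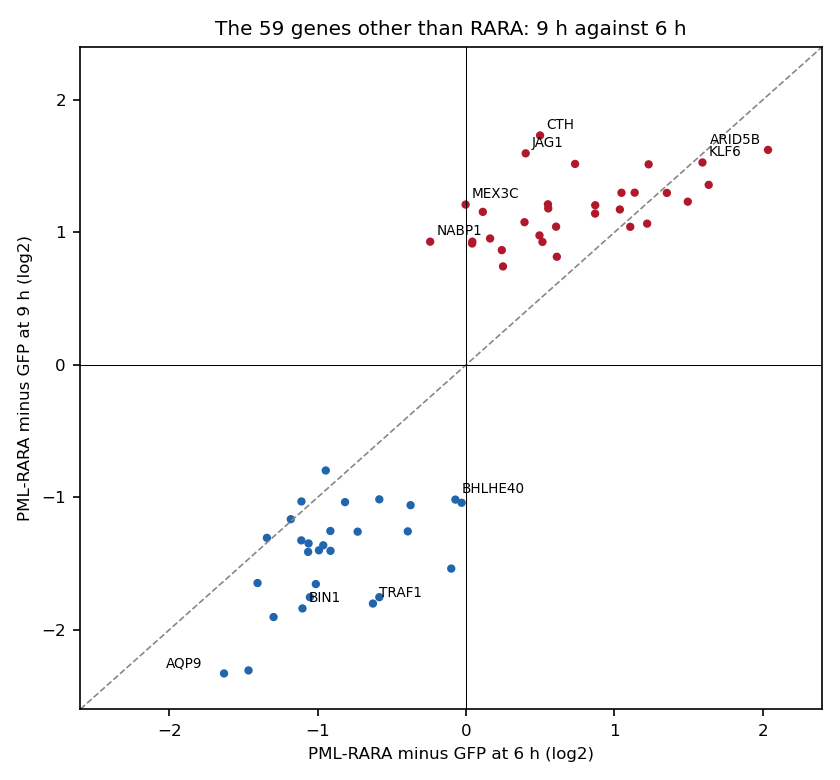
Each point is 1 of the 59 genes other than RARA that passed in the fit of the 9 h arrays; the axes give the log2 difference of fusion from GFP cells at 6 h (x) and at 9 h (y), red for genes that rose at 9 h and blue for those that fell. The dashed line marks equal differences. All but MEX3C and NABP1 lie on the same side of 0 at both times, and JAG1 and CTH lie well above the line.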

How the data were processed

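RNA was prepared with Trizol and labelled as cRNA by Affymetrix's procedure, per the labels' protocols. The deposited intensity values are MAS5 signals, per the submitters' processing notes, already scaled by the authors to 1 trimmed mean. They were not normalized further. Of 54675 probe sets, 41091 had 1 gene symbol, 1801 several and 11721 none here. The probe set with the highest mean was taken per gene, from log2(signal + 62.5), where 62.5 is the 20th percentile. Genes were tested whose mean reached the 40th percentile of probe sets (a signal of 168.9).

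The fits used limma 3.58.1 (R 4.3.3) with a variance trend, on all 12 arrays, with 6 group means and the set (hour and replicate number) as a block, which left 4 residual degrees of freedom. Benjamini-Hochberg adjustment ran over the 13959 genes, with a threshold of 0.05. Errors are SEs of this fit. The fit of the 9 h arrays alone had 2 residual degrees of freedom. Same-numbered arrays of 9 h deviated together from their group means (r = 0.60, 0.63 and 0.56 across genes between constructs; 0.36, 0.15 and 0.21 at 6 h). The code was tested on simulated data. The members and lists were chosen with earlier results of these data known. Genes named are the 10 smallest unadjusted p per direction with 1 direction in 4 of 4 comparisons, up to 4 members per list, RARA and PML. Other genes that passed in the fit of the 9 h arrays, and other members named with a list, were chosen after their values were seen.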

Additional observations from a re-analysis of the deposited data

How the results depend on the processing

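In the fit of 12 arrays the comparison of fusion with GFP cells gave 1 gene, RARA, under the other offsets, filters, probe set rule, normalization and omitted arrays that were run. The fit with no replicate block, unpaired, also gave 1. With the 9 h arrays alone and the block it gave 60. That setting was planned, and its combinations with others were chosen after seeing the data. It then gave 44 genes at an offset of 16, 92 at 250, 47 with no filter, 46 with a filter at the 60th percentile, 7 with the mean of probe sets, 23 after quantile normalization and 1 without the block. Leaving out 1 array at a time gave 1 to 808: 808 without PRWT number 1, 728 without PRWT number 2, 4 without PR2VR number 1 and 1 in the others. For PRWT the fit of 9 h arrays gave 12 and for PR2VR 23. For PR2VR the fit of 12 arrays gave 0 with the mean of probe sets. Leaving out arrays there gave 0 to 1 genes for each form, with 0 without the number 1 arrays of 9 h. The cause was not tested. None of the 1762 values of named genes in the planned settings reversed, while 3 lost and 40 gained the threshold. The named genes were picked from these same arrays, so the lack of reversals largely follows from the choice and is no support for it. With the 9 h arrays alone and the mean of probe sets, 59 of the 60 genes kept their direction. With the mean of probe sets RAB20 differed by -1.09 and TRAF1 by -1.12. The T cell list has no member above the 60th percentile filter. Signal over background limits dim genes, and 2 arrays a group limit the precision.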
